A study of Sus scrofa with 32 samples.

Results

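Luminal epithelium (LE), which faces the conceptus, and glandular epithelium (GE), which lines the uterine glands, were compared for how pregnancy changed their mRNA levels in porcine endometrium on Day 14. The quantity described for each gene is the log2 fold change between pregnant and cyclic gilts in LE minus the same fold change in GE, called the difference here. A positive difference means that the level moved up more, or down less, in LE than in GE. Of 30185 genes counted, the 10922 that the authors had kept as detectable both in LE (12002 genes) and in GE (11905 genes) were tested, so that genes detectable in only 1 epithelium are not covered. The 15 libraries of these epithelia, out of 31 libraries of the series with counts here, entered 1 fit.

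Every gilt was prepuberal and had been synchronized with the gonadotropins eCG and hCG. Pregnant gilts were then inseminated with semen, and cyclic gilts with semen supernatant of the same boar. LE and GE were cut from frozen sections of each gilt by laser capture microdissection (LCM), in pregnant gilts from hyperemic zones where embryos attach, so that pregnancy and sampling site cannot be told apart. Gilts are named C (cyclic) or P (pregnant) with the number in their labels. LE was analysed for cyclic gilts C40, C42, C78 and C128 and for pregnant gilts P39, P41, P43 and P139. GE was analysed for the same gilts except pregnant gilt P41, whose GE was not analysed here. The difference was therefore estimated from the 7 gilts with both epithelia. The gilt was kept as a block, since LE and GE of a gilt came from the same animal, and LE of gilt P41 then carries no information on the difference. Fold changes given for LE or GE alone come from group means of all 15 libraries without the block. They are separate estimates and need not subtract exactly to the difference.

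During the peri-implantation period the pig conceptus elongates in the uterine lumen and secretes estrogens, interferons and interleukin 1 beta before it attaches to LE. LE forms the attachment surface and is exposed directly to these signals. Glands secrete histotroph, the mixture of proteins, ions and nutrients on which the free conceptus depends, and reach the lumen only through their ducts. A gene can therefore be expressed in both epithelia and yet respond in unlike ways.

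Library totals ranged from 3143100 to 7081556 counts with a median of 3915623, and values are given as CPM, the counts of a gene per library total on the usual fixed scale, after TMM normalization over the 15 libraries. Ribosomal RNA genes took 5.20% of the counts in GE of cyclic gilt C78 and up to 14.8% elsewhere. All 16 epithelial markers had counts in every library. Their summed levels lay between 3475 and 4357 CPM in cyclic LE and 3127 and 3468 CPM in pregnant LE. In GE these sums were between 2213 and 2990 CPM in cyclic and 2450 and 2947 CPM in pregnant gilts. With pregnancy 4 of these markers fell and 1 rose in LE, and 2 fell and 2 rose in GE, at an adjusted p under 0.05. FOXA2, a transcription factor of uterine glands, ranged from 71.0 to 105 CPM in GE and had a median of 0.624 CPM in cyclic and of 0 in pregnant LE, with a highest LE value of 7.95 CPM. Markers of other cells were present in both captures. Summed levels of 15 fibroblast markers lay between 4832 and 16770 CPM in cyclic LE, 12300 and 20090 CPM in pregnant LE, 3484 and 8826 CPM in cyclic GE and 4472 and 7786 CPM in pregnant GE. Median summed levels of 18 endothelial markers were 771 and 1244 CPM in cyclic and pregnant LE and 59.3 and 96.5 CPM in GE, and those of 24 leukocyte markers were 145 and 214 CPM in LE and 77.0 and 177 CPM in GE. None of 6 endothelial, 5 leukocyte, 7 smooth muscle and 16 epithelial markers tested had a called difference. Among 13 fibroblast markers THY1 was called (7.69%). Of all genes tested 2.04% were called, so that marker sets this small would often hold no called gene. Of 348 tested genes with a mean at least 4-fold higher in stroma or blood vessels than in both epithelia, 1 was called, WNT2. This rule passes over genes that other cells hold above only 1 epithelium. THY1 is such a gene, with means without TMM of 148.5 CPM in LE, 4.65 CPM in GE and 104.5 CPM in blood vessels. Fewer cells of a type and less RNA per cell cannot be told apart in such captures, and the part of other cells in the results was not tested.

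The effect of pregnancy differed between LE and GE for 223 genes at an adjusted p under 0.05, which is 2.04% of the genes tested. The difference was positive for 125 genes (1.14%) and negative for 98 (0.897%), and its median over all genes was -0.01. At an adjusted p under 0.01, 14 genes were called (0.128%), and 1793 genes had an unadjusted p under 0.05. Most called genes changed in LE. Of the 125 positive ones, 103 were upregulated in LE while GE did not pass the test, 9 were downregulated in GE alone, 4 moved in opposite directions, 2 rose in both and 7 passed in neither. Of the 98 negative ones, 52 were downregulated in LE alone, 21 were upregulated in GE alone, 3 moved in opposite directions, 3 fell in both and 19 passed in neither. For comparison, 7.89% of all tested genes were upregulated and 6.55% downregulated in LE, and 3.63% and 2.65% in GE. The change in LE was the larger one in 172 called genes (77.1%), against 50.8% of all genes tested. The fitted changes had opposite signs in 144 called genes (64.6%), against 32.9% of all genes. A call on the difference itself favours opposite signs, medians far apart and gilts without overlap. This share, and the medians and lack of overlap in called genes that follow, are therefore a description only. The called positive genes had a median log2 fold change of 1.73 in LE and of -0.14 in GE, and the called negative ones of -1.21 in LE and 0.72 in GE. In all 223 genes the 4 cyclic gilts did not overlap the 3 pregnant ones in LE minus GE, which was also the case for 16.6% of all genes (8.42% with higher and 8.13% with lower values in pregnant gilts).

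The count of called genes depended on single gilts. It was 18 without pregnant gilt P39, 26 without cyclic gilt C42, 49 without cyclic gilt C40 and 57 without pregnant gilt P43. It was 87 without pregnant gilt P139, 160 without cyclic gilt C78, 217 without pregnant gilt P41 and 346 without cyclic gilt C128. LE of P41 carries no information on the difference. A call kept without P41 is therefore no separate check, here and in every count out of 8 fits below. All 223 genes kept the sign of their difference in each of the 8 fits that left out 1 gilt. Without overlap between cyclic and pregnant gilts in LE minus GE, leaving out 1 gilt could hardly reverse a sign. The kept sign is therefore no separate support. Of the 223 genes, 13 stayed called in every one of these fits.

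**Figure D1:**
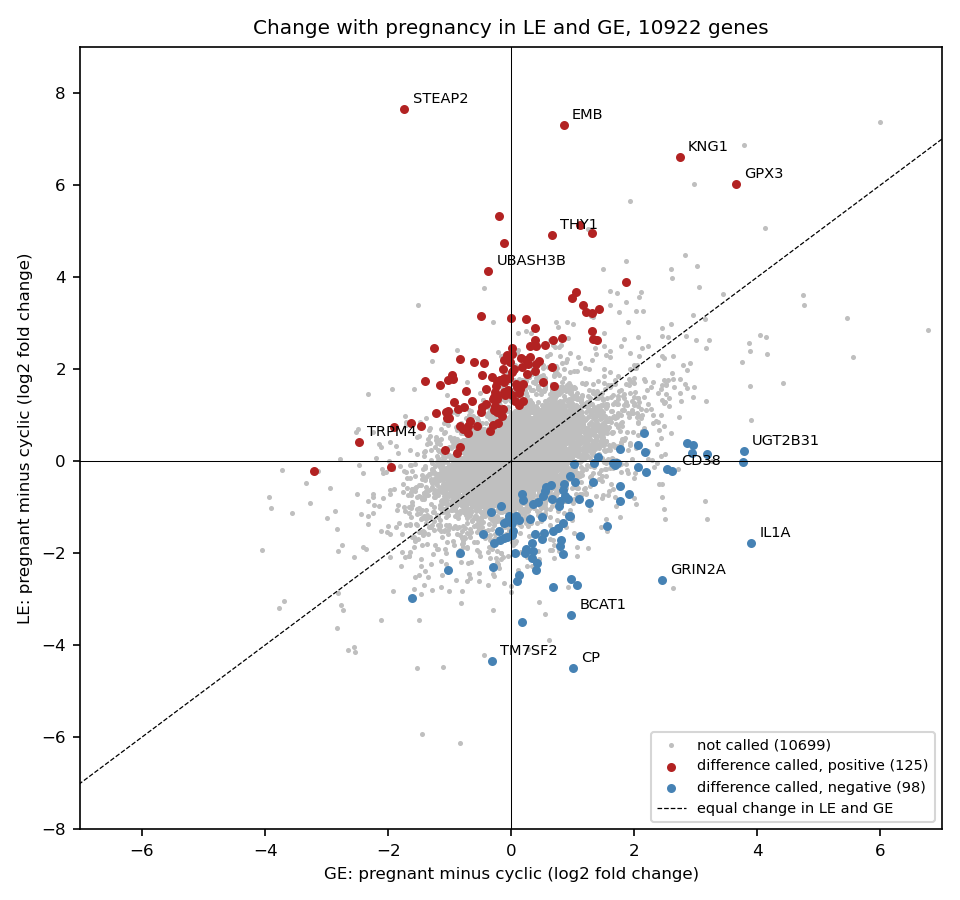
Log2 fold change between pregnant and cyclic gilts in GE (horizontal axis) and in LE (vertical axis) for 10922 genes, 1 point per gene. Called differences are coloured (125 positive in red, 98 negative in blue), and the dashed line marks equal change. Called genes lie away from this line, and most red points lie high above a GE change near 0.

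STEAP2, a metalloreductase for iron and copper, had the largest called difference, 9.71 ± 0.55 (SE, adjusted p = 0.00049). The gene lies at chr9:70334785-70365687 (Sscrofa11.1). Its level in LE was 1.11, 1.17, 2.65 and 3.49 CPM in cyclic gilts C40, C42, C78 and C128 and 456, 214, 568 and 473 CPM in pregnant gilts P39, P41, P43 and P139. In GE it was 7.75, 9.33, 7.98 and 7.70 CPM in the cyclic gilts and 2.02, 4.56 and 1.09 CPM in pregnant gilts P39, P43 and P139. Every pregnant LE library was above every cyclic one, and every pregnant GE library was below every cyclic one. The rise in LE (log2 fold change 7.65 ± 0.47) and the fall in GE (-1.74 ± 0.48, adjusted p = 0.0453) each passed the test.

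EMB encodes embigin, a membrane glycoprotein of the immunoglobulin superfamily that accompanies monocarboxylate transporters to the cell surface (chr16:30121072-30170495). In LE its level was 14.0, 21.7, 16.2 and 10.7 CPM in cyclic and 4767, 668, 1821 and 2614 CPM in pregnant gilts. In GE it was 41.5, 57.1, 52.8 and 134 CPM in cyclic and 196, 90.6 and 99.1 CPM in pregnant gilts. EMB was thus lower in LE than in GE of every cyclic gilt and higher in LE than in GE of each pregnant gilt with both epithelia. Its difference was 6.59 ± 0.54 (adjusted p = 0.00535), with a log2 fold change of 7.30 in LE and of 0.85 in GE, where it did not pass the test (adjusted p = 0.362).

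THY1, a glycolipid-anchored surface protein widely used as a fibroblast marker, rose in LE with a log2 fold change of 4.92 ± 0.65 and had a difference of 4.65 ± 0.48 (adjusted p = 0.0085). Its level in LE was 8.87, 10.6, 6.52 and 14.2 CPM in cyclic and 660, 63.8, 162 and 329 CPM in pregnant gilts. In GE the values were 2.75, 3.11, 5.16 and 4.20 CPM in cyclic and 8.35, 1.30 and 8.09 CPM in pregnant gilts. The LE groups did not overlap and the GE groups did. The summed level of the 15 fibroblast markers overlapped between cyclic and pregnant LE. Whether other cells had a part in the rise of THY1 was not tested. With the gilt as a random effect the adjusted p of THY1 was 0.0807.

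NDFIP1, an adaptor that recruits ubiquitin ligases of the NEDD4 family, was at 145, 160, 98.2 and 142 CPM in cyclic LE and at 605, 409, 715 and 532 CPM in pregnant LE. In GE it stayed between 88.2 and 112 CPM in cyclic and between 105 and 120 CPM in pregnant gilts. The difference was 2.01 ± 0.21 (adjusted p = 0.0085). A like pattern, a rise in LE beside a GE change that did not pass the test, was found for 6 more of the 10 positive genes with the smallest p. They were AGPAT5, an acyltransferase of phospholipid synthesis, with a difference of 1.84 ± 0.19, FSD1L with 2.53 ± 0.27, VMA21, an assembly factor of the vacuolar proton pump, with 2.07 ± 0.23, NEURL1B, a ubiquitin ligase for Notch ligands, with 2.19 ± 0.24, TLK2, a chromatin kinase, with 1.62 ± 0.19 and FAM91A1, which takes part in vesicle tethering at the Golgi, with 1.99 ± 0.23. Mean levels of VMA21 were 78.9 ± 14.6 CPM (SD, n = 4) in cyclic and 275 ± 108 CPM (n = 4) in pregnant LE against 85.4 ± 7.91 CPM (n = 4) and 83.3 ± 2.63 CPM (n = 3) in GE. NEURL1B varied widely between gilts, at 126 ± 92.1 CPM (SD, n = 4) in pregnant LE, and its adjusted p was 0.193 without the block and 0.125 with the gilt as a random effect. Without pregnant gilt P39 the adjusted p was 0.0529 for FSD1L, 0.0529 for TLK2 and 0.0568 for FAM91A1, and the other 7 of these 10 genes stayed called in every fit that left out 1 gilt.

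**Figure D2:**
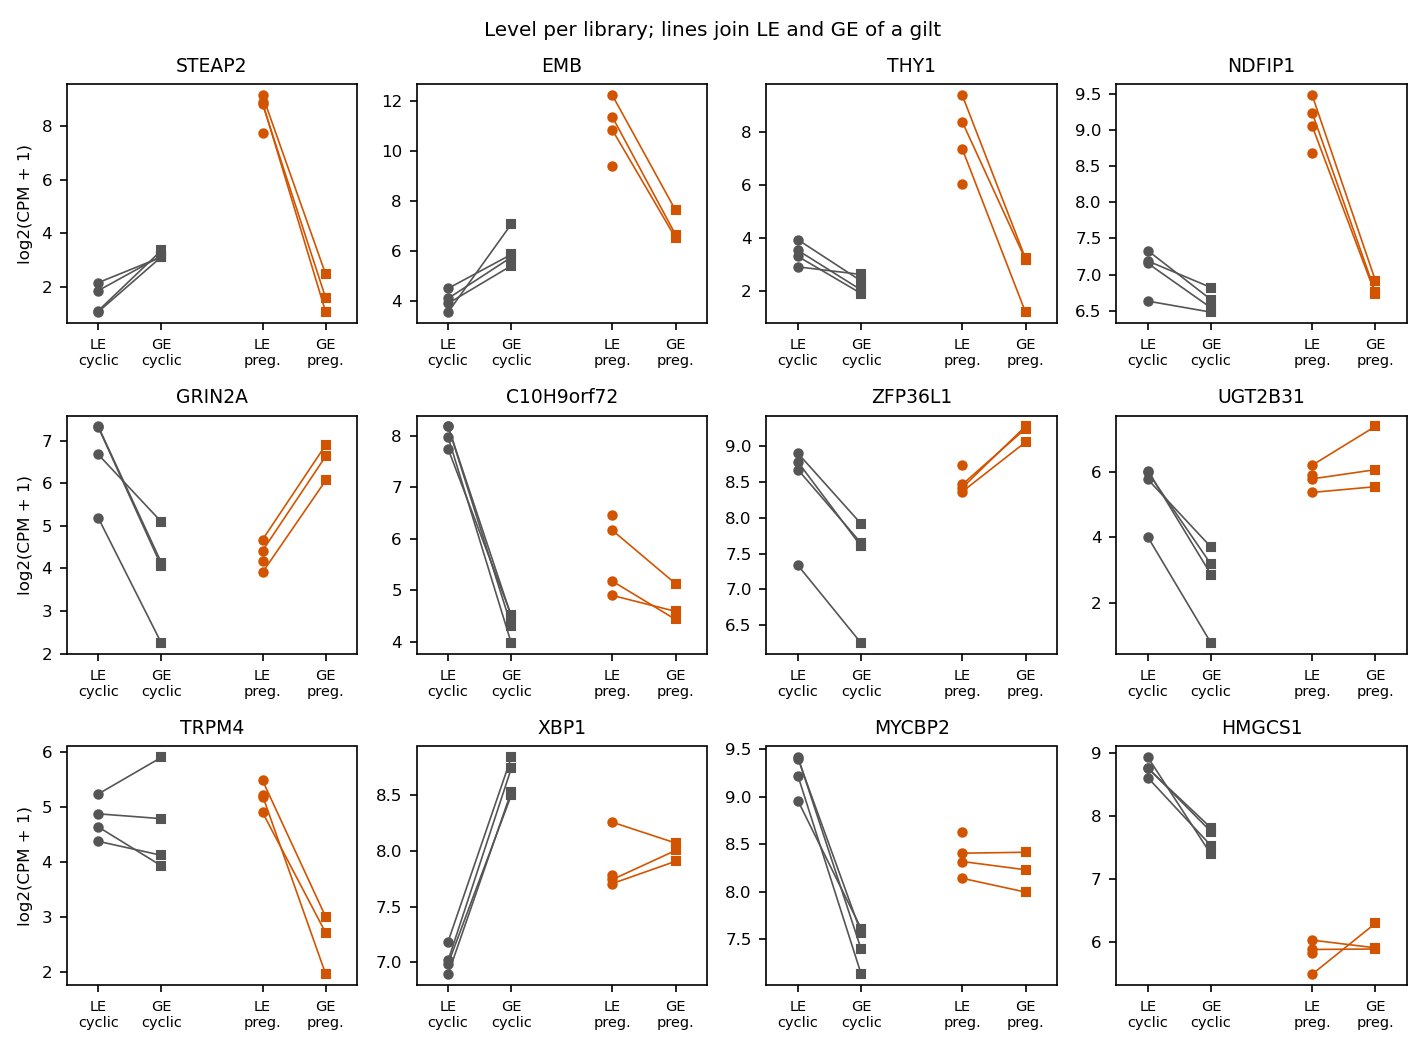
Level of 12 genes as log2(CPM + 1) in each library (vertical axes, own scale per gene). Circles are LE and squares GE, grey is cyclic and orange pregnant, lines join LE and GE of a gilt, and the pregnant LE circle without a line is gilt P41. For STEAP2 and GRIN2A every line slopes one way in cyclic gilts and the opposite way in pregnant gilts.

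GRIN2A, a subunit of the NMDA glutamate receptor (chr3:32749329-33149350), had the smallest p among negative differences. Its level in LE was 160, 159, 101 and 35.4 CPM in cyclic and 24.5, 17.1, 14.0 and 20.3 CPM in pregnant gilts. In GE it was 16.5, 15.6, 33.1 and 3.73 CPM in cyclic and 118, 65.8 and 98.2 CPM in pregnant gilts. Neither epithelium showed overlap between the groups. The fall in LE was -2.59 ± 0.53, the rise in GE 2.45 ± 0.55 and the difference -5.10 ± 0.45 (adjusted p = 0.00615). Cyclic gilt C128 had the lowest cyclic values in both epithelia.

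C10H9orf72, the pig counterpart of a gene of endosomal traffic and autophagy (chr10:38389366-38415903), fell in LE and did not pass the test in GE. The level was 290, 251, 214 and 290 CPM in cyclic and 28.8, 87.6, 70.6 and 35.1 CPM in pregnant LE. In GE all 7 libraries were between 14.7 and 33.9 CPM. The difference was -3.04 ± 0.28 (adjusted p = 0.00659). Of the other negative genes with the smallest p, AMER1 and CXXC4, both inhibitors in Wnt signalling, RPS6KA5, a kinase downstream of MAP kinases, and ATP6V0A1, a subunit of the vacuolar proton pump, also fell in LE alone. Their differences were -1.94 ± 0.23, -2.52 ± 0.32, -2.28 ± 0.29 and -1.80 ± 0.23. ATP6V0A1 was at 347 ± 55.9 CPM (SD, n = 4) in cyclic and 149 ± 14.1 CPM (n = 4) in pregnant LE, against 42.2 ± 10.8 CPM (n = 4) and 59.5 ± 6.42 CPM (n = 3) in GE. SLC7A1, the main carrier of arginine and lysine, had a difference of -2.50 ± 0.28 although neither epithelium passed the test by itself (log2 fold change -1.20 in LE and 0.93 in GE). Without pregnant gilt P39 the adjusted p was 0.0632 for AMER1, 0.0634 for RPS6KA5, ATP6V0A1 and CXXC4 and 0.0503 for SLC7A1, and without cyclic gilt C42 it was 0.055 for ATP6V0A1. Without the block it was 0.0831 for SLC7A1.

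In another group of genes GE changed more than LE. ZFP36L1, an RNA-binding protein that promotes mRNA decay, was at 199, 193, 240 and 75.2 CPM in cyclic and at 605, 619 and 531 CPM in pregnant GE. In LE it was at 406, 438, 476 and 161 CPM in cyclic and at 352, 425, 342 and 329 CPM in pregnant gilts. GE rose to a level above that of LE, while the LE groups overlapped. The difference was -1.85 ± 0.18 (adjusted p = 0.0085).

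CD38, an ectoenzyme that degrades NAD, was at 2.75, 1.56, 0.938 and 0.934 CPM in cyclic and 11.8, 8.15 and 8.75 CPM in pregnant GE, and ranged from 17.0 to 61.8 CPM over the 8 LE libraries. UGT2B31, a UDP-glucuronosyltransferase of a family with near-identical members, was at 6.25, 8.0, 12 and 0.70 CPM in cyclic and 166, 45.6 and 65.8 CPM in pregnant GE. In LE it ranged from 15 to 64.5 CPM in cyclic and from 40.3 to 72.5 CPM in pregnant gilts. For both genes the GE groups did not overlap and the LE groups did, with differences of -3.49 ± 0.41 and -3.55 ± 0.45. VAV3, an activator of small GTPases, followed them with -1.79 ± 0.24, a log2 fold change of 2.05 in GE and of 0.34 in LE. CDC25B, a phosphatase that drives entry into mitosis, had a difference of -2.16 ± 0.28 with no call within either epithelium. Without the block the adjusted p was 0.0873 for ZFP36L1, 0.0545 for CD38, 0.0506 for UGT2B31, 0.0977 for VAV3 and 0.178 for CDC25B. With the gilt as a random effect it was 0.0632 for CD38 and 0.0854 for CDC25B. Without pregnant gilt P39 it was 0.0529 for CD38, 0.0632 for UGT2B31, 0.0634 for CDC25B and 0.0753 for VAV3, and without cyclic gilt C42 it was 0.055 for UGT2B31 and CDC25B and 0.0625 for VAV3.

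Downregulation in GE without a called change in LE was found for TRPM4, PAQR7, CCT3 and NEDD9. TRPM4, a calcium-activated cation channel, fell from 14.3, 26.7, 16.4 and 59.0 CPM in cyclic to 2.88, 5.54 and 7.0 CPM in pregnant GE. LE libraries ranged from 19.8 to 36.8 CPM in cyclic and from 29.0 to 43.9 CPM in pregnant gilts. The difference was 2.75 ± 0.43 (adjusted p = 0.025). PAQR7, a membrane progesterone receptor, fell from a mean of 15.4 ± 4.41 CPM (SD, n = 4) to 4.1 ± 0.58 CPM (n = 3) in GE, and its LE means were 7.35 ± 4.07 CPM and 12.2 ± 3.76 CPM (n = 4 each). Its difference was 2.86 ± 0.42 (adjusted p = 0.0235). CCT3, a subunit of the cytosolic chaperonin, and NEDD9, a scaffold of focal adhesions, had differences of 1.32 ± 0.22 and 2.11 ± 0.36. These 4 genes held their call in 2 to 4 of the 8 fits without 1 gilt. Leaving out pregnant gilt P39, pregnant gilt P43 or cyclic gilt C42 ended it for all 4, with an adjusted p of at most 0.129, 0.0989 and 0.0888. Cyclic gilt C40 ended it for PAQR7, CCT3 and NEDD9 (at most 0.073), pregnant gilt P139 for TRPM4, PAQR7 and CCT3 (at most 0.0788) and cyclic gilt C78 for CCT3 and NEDD9 (0.0514 for both). Without the block the adjusted p of CCT3 was 0.080.

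Changes in opposite directions, each called within its epithelium, were found for 7 genes (0.0641% of those tested), and the difference was called for each of them. STEAP2 and GRIN2A were 2 of these. XBP1, a transcription factor of the unfolded protein response (chr14:46011239-46016526), rose in LE from 126, 145, 118 and 129 CPM to 305, 219, 213 and 208 CPM. In GE it fell from 361, 456, 369 and 426 CPM to 268, 256 and 239 CPM. LE of the cyclic gilts held less XBP1 than GE of the same gilt, and the 3 pregnant gilts had LE minus GE values of log2(CPM + 1) between -0.26 and 0.186. The difference was 1.54 ± 0.20 (adjusted p = 0.0129).

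MYCBP2, a large ubiquitin ligase, showed the converse. It fell in LE from 682, 496, 676 and 595 CPM to 282, 396, 319 and 339 CPM. In GE it rose from 168, 195, 188 and 140 CPM to 255, 299.9 and 341 CPM. The difference was -1.75 ± 0.24 (adjusted p = 0.0151), and the levels in LE and GE of pregnant gilts came close to each other.

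ABRACL and MOBKL3, a component of a phosphatase and kinase complex, rose in LE and fell in GE with differences of 2.15 ± 0.28 and 1.54 ± 0.21. PRIM1, the small subunit of DNA primase, fell in LE and rose in GE with a difference of -2.93 ± 0.60 (adjusted p = 0.0492), from a mean of 21.4 CPM to 8.04 CPM in LE and of 1.89 CPM to 5.67 CPM in GE. The count of such genes was 0 without pregnant gilt P39, 1 without cyclic gilt C42 or pregnant gilt P139, 2 without cyclic gilt C40 or pregnant gilt P43 and 11 without cyclic gilt C128. Of the 5 genes described after STEAP2 and GRIN2A, each lost its call without pregnant gilt P39, where the adjusted p was 0.0634 for XBP1 and ABRACL, 0.0703 for MYCBP2, 0.0753 for MOBKL3 and 0.174 for PRIM1. Cyclic gilt C42 ended the calls of XBP1 (0.061), ABRACL (0.055), MOBKL3 (0.0613) and PRIM1 (0.119), cyclic gilt C40 those of MOBKL3 and MYCBP2 (0.0524 for both), pregnant gilt P43 those of MOBKL3 (0.0543), MYCBP2 (0.0544) and PRIM1 (0.129), and for PRIM1 also cyclic gilts C78 (0.0889) and C128 (0.0568) and pregnant gilt P139 (0.102). PRIM1 also missed the threshold with TMM within each compartment (0.0504), with the other filters (0.0595 and 0.0596) and without the ribosomal RNA genes (0.0501).

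**Figure D3:**
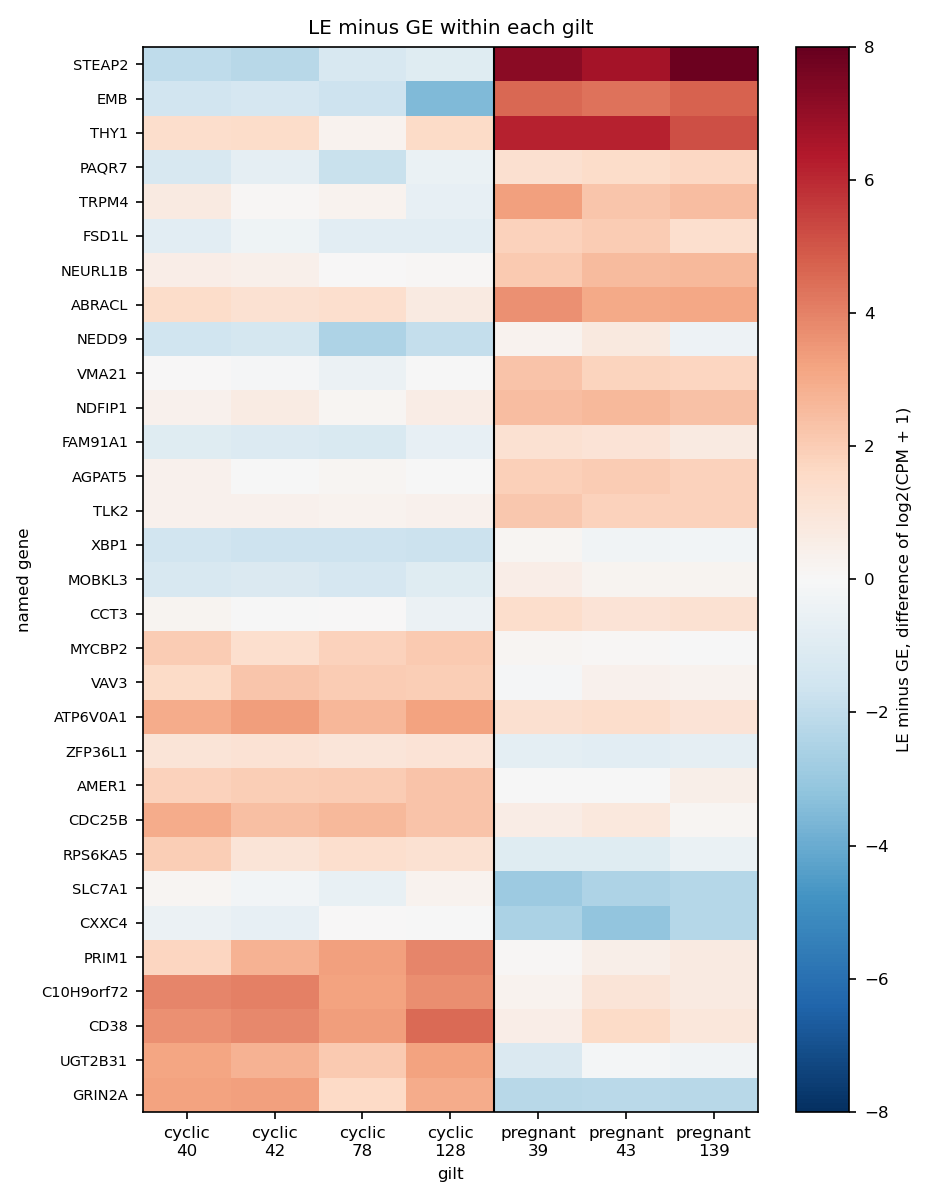
LE minus GE within each of the 7 gilts with both epithelia, as a difference of log2(CPM + 1), for the 31 genes named by rank. Red means a higher level in LE, blue a higher level in GE. The vertical line parts cyclic from pregnant gilts, and no gene overlaps across it.

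Gene lists of pathways known in endometrium were then counted against the 2.04% called among all genes. Cholesterol synthesis and uptake held 4 called genes of 25 tested (16.0%), all negative. The enzymes of this pathway build cholesterol from acetyl-CoA and are under joint transcriptional control by SREBP2. The fitted change was a fall for 25 of 25 genes in LE and for 23 of 25 in GE, of which 18 in LE and 9 in GE passed the test and none rose. The median log2 fold change was -1.67 in LE and -0.80 in GE, and 20 of 25 differences were negative with a median of -0.70, against -0.01 over all genes. HMGCS1, which makes HMG-CoA, fell in both epithelia. It was at 390, 435, 432 and 488 CPM in cyclic and 57.6, 55.3, 64.0 and 43.6 CPM in pregnant LE. In GE it was at 183, 214, 223 and 166 CPM in cyclic and 57.9, 58.7 and 77.2 CPM in pregnant gilts. The level was higher in LE than in GE of every cyclic gilt, and in pregnant gilts LE was at 57.6 against 57.9 CPM in P39, 64.0 against 58.7 CPM in P43 and 43.6 against 77.2 CPM in P139. The difference was -1.39 ± 0.29 (adjusted p = 0.0496). MSMO1, a sterol methyl oxidase, also fell in both, with a log2 fold change of -2.37 in LE and -1.04 in GE. TM7SF2 and SC5D, a sterol reductase and a desaturase of late steps, fell in LE alone. TM7SF2 was at 14.6, 10.6, 9.65 and 23.4 CPM in cyclic and at 0, 0.438, 1.0 and 1.37 CPM in pregnant LE, and GE ranged from 3.50 to 7.47 CPM in cyclic and from 2.59 to 7.0 CPM in pregnant gilts. Its difference was -3.81 (adjusted p = 0.0327). Without cyclic gilt C40, cyclic gilt C42, pregnant gilt P39 or pregnant gilt P43 no gene of this list was called, 1 was called without pregnant gilt P139 and 3 or 4 in the other fits without a gilt. HMGCS1 was called in none of these 8 fits and TM7SF2, MSMO1 and SC5D in 3 each, and the adjusted p of MSMO1 was 0.0506 without the block.

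The 250 bases before the annotated start of a gene were read from Sscrofa11.1, on both strands, for a sterol regulatory element with the letters TCACNCCAC. It was found in 3 of 24 cholesterol genes (12.5%) and in 0.773% of the 10742 tested genes with such a window. Among called genes it was in 1 of 98 windows with a negative difference (1.02%) and in 1 of 123 with a positive one (0.813%). SQLE and SREBF2 also held it and were not called. The share in the list describes the list and not the difference between LE and GE. The HMGCS1 window, at chr16:27957262-27957511 on the minus strand, is shown because HMGCS1 is the called member that holds the element, which is in capitals and begins 181 bases upstream of the start.
HMGCS1: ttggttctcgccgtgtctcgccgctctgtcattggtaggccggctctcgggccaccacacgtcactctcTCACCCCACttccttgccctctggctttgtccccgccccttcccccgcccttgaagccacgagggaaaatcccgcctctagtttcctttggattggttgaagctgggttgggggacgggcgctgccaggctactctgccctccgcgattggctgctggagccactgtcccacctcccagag
The windows of TM7SF2, MSMO1 and SC5D did not hold these letters. A match is a match of letters only.

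Among 26 genes of endoplasmic reticulum chaperones and stress, XBP1 and SDF2L1, a chaperone cofactor, were called (7.69%), both positive. SDF2L1 was low, with means of 4.15 CPM (cyclic) and 8.47 CPM (pregnant) in LE against 6.35 and 2.74 CPM in GE, and its difference of 2.21 (adjusted p = 0.0496) was called in none of the 8 fits without a gilt. In 21 of 26 genes the difference was positive, with a median of 0.30. In GE 4 genes fell (XBP1, MANF, HYOU1 and DNAJB11) and none rose, and in LE 3 rose (XBP1, CREB3L2 and DNAJC3) and none fell. The main chaperone HSPA5 had a difference of 0.15 (adjusted p = 0.886). The endoplasmic reticulum stress element is CCAAT and CCACG with 9 unspecified bases between them, and it contains the CCAAT box. It was found on either strand in 6 of 26 windows of this list (23.1%) and in 0.102% of all windows. Among called genes it was in 1 of 123 windows with a positive difference (0.813%) and in 0 of 98 with a negative one. HSP90B1, CALR, CANX, PDIA6 and CRELD2 held it and were not called. The share in the list describes the list and not the difference between LE and GE. CCAAT alone was in 80.8% of the list's windows, in 75% of those of cholesterol genes and in 33.0% of all. The factors ATF6 and XBP1 are known to bind such elements, and XBP1 itself holds 1 that begins 82 bases upstream of its start. Its window, at chr14:46016527-46016776 on the minus strand, is shown with the element in capitals.
XBP1: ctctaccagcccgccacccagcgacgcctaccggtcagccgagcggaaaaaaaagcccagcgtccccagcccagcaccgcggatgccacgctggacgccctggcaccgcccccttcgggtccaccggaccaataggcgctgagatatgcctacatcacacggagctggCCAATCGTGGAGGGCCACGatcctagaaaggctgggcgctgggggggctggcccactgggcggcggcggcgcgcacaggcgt
The window of SDF2L1 did not hold these letters.

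Of 19 alarmins and secreted defence proteins 4 were called (21.1%). IL1A, an alarmin cytokine, had the most negative called difference, -6.40 (adjusted p = 0.0327). It was at 53.7, 51.3, 55.0 and 2.15 CPM in cyclic and 1.99, 27.7, 8.33 and 6.86 CPM in pregnant LE, and at 1.0, 1.11, 4.46 and 0.233 CPM in cyclic and 46.7, 26.7 and 4.59 CPM in pregnant GE. LE groups overlapped through cyclic gilt C128, GE groups did not, and neither change was called within its epithelium. CP, the copper-carrying ferroxidase ceruloplasmin, fell in LE from 379, 201, 61.8 and 94.5 CPM to 0.662, 9.49, 4.00 and 17.6 CPM. In GE it was at 53.2, 28.2, 93.4 and 10.04 CPM in cyclic and 57.3, 53.5 and 165 CPM in pregnant gilts, with overlap. Its difference was -6.13 (adjusted p = 0.0327). CLU, the secreted chaperone clusterin, was positive with 2.28. It rose in LE from a mean of 77.3 to 733 CPM, while the GE change from 569 to 1316 CPM did not pass the test. S100A14 was positive with 2.43 and had low LE means of 4.94 CPM (cyclic) and 10.7 CPM (pregnant). These 4 genes held their call in 3 or 4 of the 8 fits without a gilt. Without the block only CP was called, with adjusted p between 0.0629 and 0.179 for the others. With the gilt as a random effect again only CP was called (adjusted p = 0.0173). The values there were 0.211 for IL1A, 0.0965 for CLU and 0.0723 for S100A14.

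Among 27 genes of ion and water transport 2 were called (7.41%), both positive, and 1 of them is described. WNK1, a kinase that controls sodium and chloride carriers, rose in both epithelia, from a mean of 240 to 1481 CPM in LE and of 274 to 720 CPM in GE, with a difference of 1.26 (adjusted p = 0.0329), called in 2 of the 8 fits without a gilt. The sodium pump subunit ATP1B1 fell in both, with log2 fold changes of -2.07 in LE and -1.65 in GE and a difference of -0.48 (adjusted p = 0.571). AQP3, a glycerol and water channel, fell in GE from 559 to 43.4 CPM, with a difference of 0.08 (adjusted p = 0.994).

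In fatty acid and glucose metabolism 2 of 48 genes were called (4.17%), both positive. SLC2A1, the glucose carrier GLUT1, rose in LE from 108, 105, 103 and 78.4 CPM to 1225, 638, 1215 and 1532 CPM. In GE it was at 84.2, 41.8, 94.8 and 19.1 CPM in cyclic and 134, 108 and 114 CPM in pregnant gilts and did not pass the test. Its difference was 2.54 (adjusted p = 0.0333). ELOVL6, an elongase of fatty acids, fell in GE from a mean of 45.4 to 14.8 CPM with a difference of 2.36 (adjusted p = 0.0482). In the list of cytochrome P450 and related genes, 2 of 20 were called (10%), UGT2B31 described above and the flavin monooxygenase FMO5, which rose in LE from a mean of 34.9 to 445 CPM with a difference of 2.80 (adjusted p = 0.0251). SLC2A1 and ELOVL6 were called in 2 and FMO5 in 3 of the 8 fits without a gilt.

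Of 33 developmental transcription factors of the uterus, PAX2 and EHF were called (6.06%), both negative. PAX2, a factor of duct development, fell in LE from 241, 286, 245 and 370 CPM to 65.9, 120, 99.3 and 85.9 CPM while GE stayed between 72.4 and 112 CPM in all 7 libraries. EHF, an epithelial ETS factor, rose in GE from 48.7, 55.6, 67.3 and 66.3 CPM to 175, 153 and 127 CPM, while LE ranged from 229 to 309 CPM over all 8 libraries. Their differences were -1.78 and -1.48 (adjusted p = 0.0289 and 0.0251). Each gene changed in 1 epithelium with no group overlap there, and each was called in 3 of the 8 fits without a gilt. Of 58 growth factors, cytokines and receptors, PGF, a ligand of the VEGF family, and ACVR1, a receptor of BMPs and activins, were called (3.45%), both with a rise in LE. PGF went from a mean of 1.53 to 13.8 CPM and ACVR1 from 62.6 to 145 CPM. PGF was called in 3 and ACVR1 in 2 of the 8 fits without a gilt, and the adjusted p of PGF was 0.0828 without the block and 0.156 with the gilt as a random effect.

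Single members were called in 5 more lists. BHLHE40, a repressor in the circadian clock, rose in LE from a mean of 45.6 to 123 CPM and was at 39.2 and 39.5 CPM in cyclic and pregnant GE, with a difference of 1.45 (1 of 21 genes, 4.76%) that was called in 2 of the 8 fits without a gilt. Of this list 11 genes rose in LE and 7 in GE, among them NR1D1, with log2 fold changes of 2.63 and 3.22 and a difference of -0.48 (adjusted p = 0.559). SLA-2, a classical class I histocompatibility gene, was the only called member of 50 genes of the interferon response and antigen presentation (2.0%), with a difference of 2.29. It was at 152, 154, 164 and 175 CPM in cyclic and 990, 486, 1476 and 3437 CPM in pregnant LE, and at 80.7, 42.7, 111 and 49.0 CPM in cyclic and 55.9, 138.8 and 375 CPM in pregnant GE. Class I genes are near-identical copies, so that reads may be split among them, and SLA-1, SLA-3 and SLA-7 had differences of 1.24, 1.63 and 0.96 (adjusted p = 0.198, 0.0639 and 0.189). The whole list had 37 of 50 negative differences and a median of -0.56. LGALS3, galectin 3, fell in LE from 752, 937, 811 and 604 CPM to 153, 434, 332 and 119 CPM and was the called one of 41 adhesion genes (2.44%), with a difference of -1.61. CTSC, a lysosomal protease, rose in LE from a mean of 96.7 to 460 CPM and was the called one of 30 gland products and proteases (3.33%). PAQR7 was the called one of 22 genes of steroid reception (4.55%). In the fits without a gilt SLA-2 was called in 2, and LGALS3 and CTSC in 4 of 8. SLA-2, LGALS3 and CTSC were not called without the block (adjusted p = 0.331, 0.382 and 0.20) nor with the gilt as a random effect (0.16, 0.142 and 0.116).

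No member was called in the lists of prostaglandin handling (13 genes), Wnt signalling (24), retinoid handling (15), the cell cycle (20) and motile cilia (15). The Wnt list does not hold AMER1 and CXXC4, described above, nor the ligand WNT2, and all 3 were called. WNT2, named after its values were seen, had a difference of 1.51 (adjusted p = 0.0344). The adjusted p was 0.468 without the block and 0.238 with the gilt as a random effect. Mean levels of WNT2 without TMM were 27.9 CPM in LE, 22.8 CPM in GE, 108 CPM in blood vessels and 220 CPM in stroma. The part of other cells in its difference was not tested. HPGD, which inactivates prostaglandins, had the largest fitted difference of the prostaglandin list, -6.47 ± 1.5 (adjusted p = 0.0684 with the block and 0.0345 without it). It was at 1242, 751, 377 and 764 CPM in cyclic and 129, 119, 177 and 40.9 CPM in pregnant LE, and at 1.0, 5.11, 32.8 and 1.40 CPM in cyclic and 63.1, 44.3 and 79.4 CPM in pregnant GE. Neither epithelium showed overlap, and the spread of the cyclic GE values was wide. OXTR, the oxytocin receptor, ranged from 2.42 to 391 CPM in cyclic LE and had a difference of -4.41 (adjusted p = 0.0864). Of the members of the Wnt list, WNT5A and FZD3 had the smallest adjusted p, with differences of -1.96 and -1.45 (adjusted p = 0.0691 and 0.0737).

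**Figure D4:**
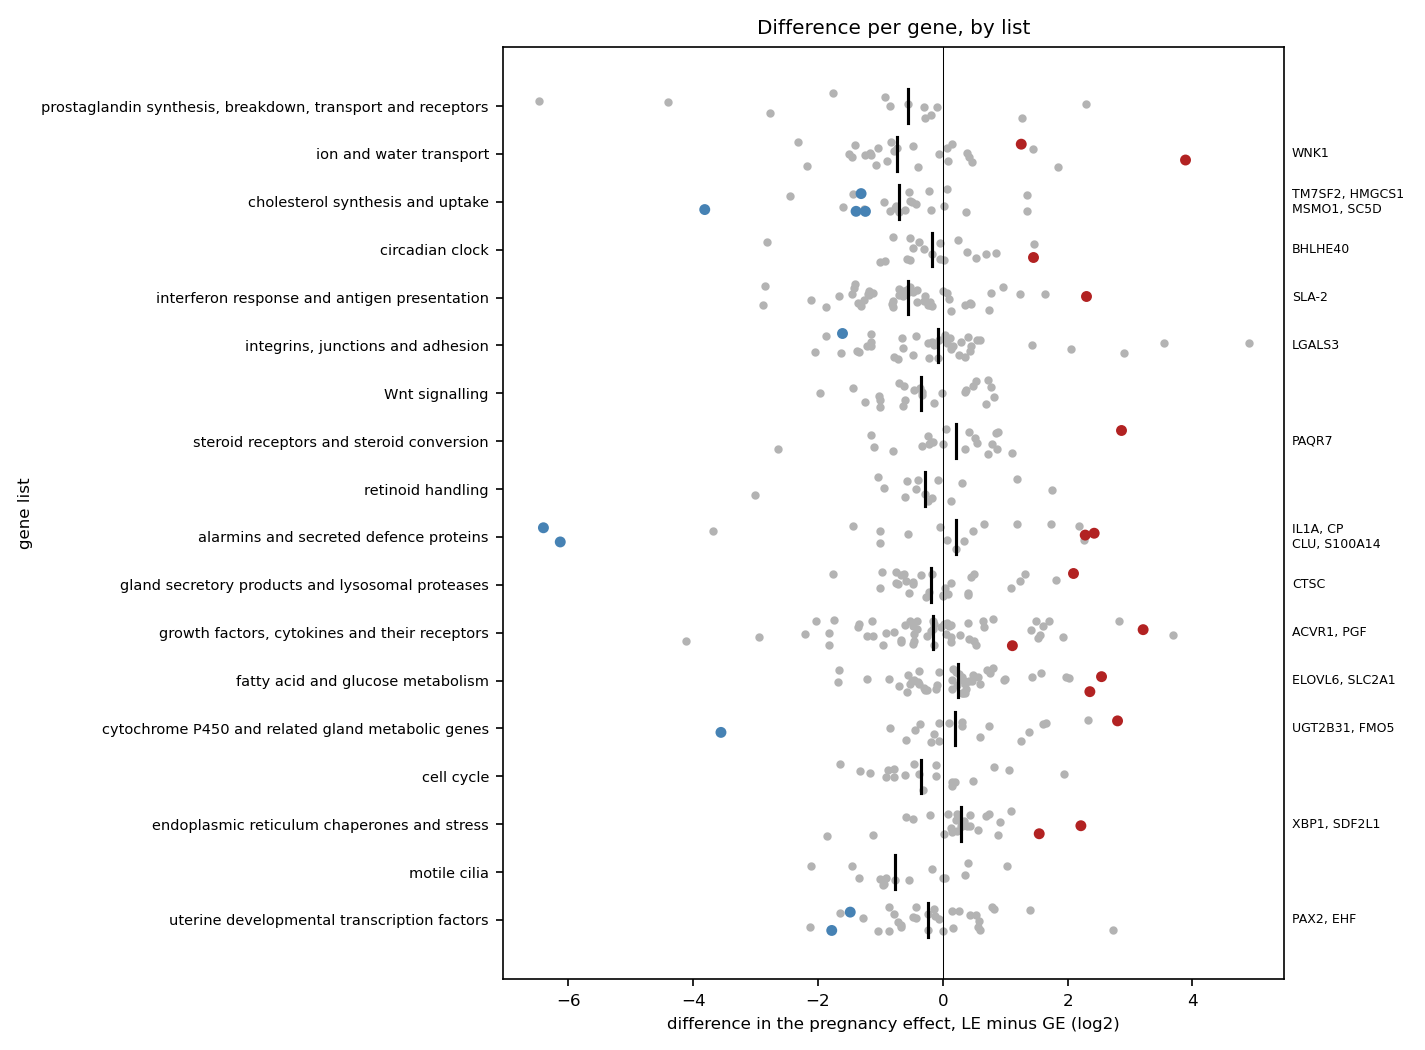
Difference in the pregnancy effect, LE minus GE on the log2 scale (horizontal axis), for each tested gene of 18 gene lists (vertical axis). Coloured points are called genes, red positive and blue negative, named at the right from low to high except for 1 gene of ion and water transport, and the black bar is the median of a list. Called cholesterol genes all lie left of 0, and the medians of the 18 lists lie between -0.77 and 0.30.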

How the data were processed

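Counts per gene, as deposited, were used for LE and GE. The authors used Trim Galore for trimming, Hisat2 for mapping to Sscrofa11.1, nudup of NuGEN for PCR duplicates and QuasR for counting per NCBI gene, and then filtered genes by a CPM minimum. Tool versions are not given in the sources used here. Libraries were made from LCM material with Ovation SoLo, with 1 library per gilt and epithelium.

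Genes kept by the authors in both LE and GE were tested in R 4.3.3 on TMM-normalized counts (edgeR 4.0.16, quasi-likelihood F test), with gilt, epithelium and epithelium by status as terms and 5 residual degrees of freedom. Benjamini-Hochberg adjustment ran over all 10922 genes, and a two-sided adjusted p under 0.05 was called. Standard errors come from the coefficient and its F statistic. Changes within LE and GE came from group means without a block. The gilt pairs LE with GE because both were cut from 1 animal. Deviations of LE and GE from their group means correlated between 0.067 (gilt P39) and 0.394 (gilt C78) over genes within a gilt. CPM in the text are TMM-normalized, with a pseudocount of 1 for log2(CPM + 1). A ratio with 1 to 3 counts in a group is given with an exact 95% binomial interval, which covers counting error only.

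Named genes had a symbol, a mean of at least 10 CPM in 1 group and a called difference. They are the 10 with the smallest p in each direction, the 5 in each direction with a larger change in GE, and those with opposite directions, plus called members of the gene lists. The genes, lists and tests were chosen with earlier results of these data known. Every tested gene ID was matched to NCBI's Sscrofa11.1 annotation for its symbol and position. Some items are not reported here. The test was tried on simulated data. Alternatives were limma voom 3.58.1 with the gilt as a random effect, DESeq2 1.42.0, the robust GLM of edgeR, other normalizations and filters, counts thinned to the smallest library, and each gilt left out. A fit of 31 libraries of 4 compartments was added after the data had been seen.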

Additional observations from a re-analysis of the deposited data

Results flagged for a closer look

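The effect of pregnancy differed between LE and GE for 223 genes, and the difference itself was tested for each. Those named by rank with a positive difference were STEAP2 (9.71), EMB (6.59), THY1 (4.65), PAQR7 (2.86), TRPM4 (2.75), FSD1L (2.53), NEURL1B (2.19), ABRACL (2.15), NEDD9 (2.11), VMA21 (2.07), NDFIP1 (2.01), FAM91A1 (1.99), AGPAT5 (1.84), TLK2 (1.62), XBP1 (1.54), MOBKL3 (1.54) and CCT3 (1.32) on the log2 scale. Those with a negative difference were GRIN2A (-5.10), UGT2B31 (-3.55), CD38 (-3.49), C10H9orf72 (-3.04), PRIM1 (-2.93), CXXC4 (-2.52), SLC7A1 (-2.50), RPS6KA5 (-2.28), CDC25B (-2.16), AMER1 (-1.94), ZFP36L1 (-1.85), ATP6V0A1 (-1.80), VAV3 (-1.79) and MYCBP2 (-1.75).

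In 5 of the 93 groups of 4 libraries looked at for these genes, 1 library stood apart by Dixon's criterion, which chance passes in about 1 of 20 groups. STEAP2 was at 9.33 CPM in GE of cyclic gilt C42, against 7.98 CPM in the next library. EMB was at 133.5 CPM in GE of cyclic gilt C128, against 57.1 CPM. NEURL1B was at 53.9 CPM in the same library, against 25.3 CPM, and CXXC4 was at 48.3 CPM in LE of gilt C128, against 29.4 CPM. XBP1 was at 304.6 CPM in LE of pregnant gilt P39, against 219 CPM.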

How the results depend on the processing

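None of the 31 genes named by rank changed sign under any alternative. They were picked by this same difference, so the kept sign is no separate support. The 223 called genes became 143 without the gilt block, of which 105 were shared. With the gilt as a random effect in limma voom 345 were called, and only 148 of the 223 were among them. The robust GLM of edgeR called 702 (with 222 of the 223 shared) and DESeq2 640 (with all 223 shared). Of the 223 genes, 147 were called by the robust GLM, DESeq2 and voom alike. With no filter on low counts 346 were called, with 207 of the 223 shared. At an adjusted p under 0.01 there were 14. The 31 libraries of 4 compartments without the block were a fit chosen after the data had been seen. This fit gave 392 genes at an adjusted p under 0.05 (with 145 of the 223 shared) and 109 under 0.01 (with 74 shared). Leaving out 1 gilt gave 18 to 346 genes. The 7 genes with opposite directions became 2 with no filter, 0 at an adjusted p under 0.01 and 0 to 11 without 1 gilt. In the fit of 31 libraries they became 18 at an adjusted p under 0.05 and 4 under 0.01. They were 7 under the unblocked, voom, robust GLM and DESeq2 tests. Over all genes tested 7 had opposite directions called within LE and GE, so a test with the same within-epithelium calls could not give more. Other normalizations, the other filters, thinned counts and the removal of ribosomal RNA genes or of genes higher in stroma or blood vessels gave 178 to 260 called and 5 to 7 opposite genes. The share of positive calls was 56.1%, and ranged from 48.4% with the robust GLM, 49.4% without pregnant gilt P139 and 50.5% with DESeq2 to 61.5% without the block and 72.2% without pregnant gilt P39. Without the block 8 of the 31 named genes lost their call, with the random effect 4 and without pregnant gilt P39 21, and SLC7A1, CXXC4 and NEURL1B lost it in the fit of 31 libraries (adjusted p = 0.0873, 0.116 and 0.0761). The cause of these changes was not tested. Genes without an overlap between gilts numbered 1808 with a pseudocount of 1, 1801 with 0.5 and 1846 with 5. With 3 pregnant gilts behind each difference and 5 residual degrees of freedom, a difference that was not called was not shown to be absent.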

Other observations

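Further groups of called genes were picked after their values had been seen. Genes of amino acid supply moved in both directions. PHGDH, the entry enzyme of serine synthesis, fell in LE from 310, 409, 462 and 1393 CPM in cyclic to 32.1, 101, 158 and 96.5 CPM in pregnant gilts, while GE was at 159, 147, 185 and 503 CPM in cyclic and 370, 294 and 523 CPM in pregnant gilts. Its difference was -3.58 (adjusted p = 0.025), and gilt C128 was the highest cyclic gilt in both epithelia. BCAT1, a transaminase of branched-chain amino acids, fell in LE from a mean of 3008 to 295 CPM with a difference of -4.86 (adjusted p = 0.0488). AARS, the alanyl-tRNA synthetase, fell in LE from 189 to 75.6 CPM with a difference of -1.30. GOT2 and SLC43A2, a mitochondrial aminotransferase and a carrier of large neutral amino acids, rose in LE with differences of 1.91 and 2.16. In the fits without a gilt PHGDH and SLC43A2 were called in 4, BCAT1 in 3, and AARS and GOT2 in 2 of 8. Without the block AARS was called, and the adjusted p was 0.0513 for PHGDH, 0.0614 for BCAT1, 0.161 for GOT2 and 0.104 for SLC43A2.

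Genes of metal and oxygen handling other than STEAP2 and CP also had called differences, among them ATP7B, SOD2 and GPX3. ATP7B, a copper exporter, was at 24.2, 23.7, 18.8 and 5.64 CPM in cyclic and 162, 102, 157 and 209 CPM in pregnant LE, and GE stayed between 6.63 and 20.9 CPM in all 7 libraries. Its difference was 3.48 (adjusted p = 0.0259), called in 4 of the 8 fits without a gilt. SOD2, the mitochondrial superoxide dismutase, rose in LE from a mean of 14.6 to 36.3 CPM with a difference of 2.07, which was called in 1 of the 8 fits without a gilt (adjusted p = 0.0652 without the block and 0.0517 with the gilt as a random effect). GPX3, a secreted glutathione peroxidase, had a log2 fold change of 6.02 in LE and of 3.65 in GE, and its adjusted p was 0.0446 with the block and 0.534 without it, with a call in 3 of the 8 fits without a gilt.

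MYBL2, a transcription factor of dividing cells, was at 4.00, 4.22, 5.40 and 1.87 CPM in cyclic and 24.5, 52.8 and 13.3 CPM in pregnant GE with no overlap, and LE ranged from 5.30 to 30.4 CPM over all libraries. Its difference was -3.11 (adjusted p = 0.0327, 0.115 without the block and 0.0976 with the gilt as a random effect). FAM111B, a gene of replicating cells, rose in GE with a difference of -2.27 that was called in 1 of the 8 fits without a gilt, beside PRIM1 and CDC25B, while none of the 20 genes of the cell cycle list was called. KNG1, which encodes kininogen, had 1 count in all cyclic and 126 counts in all pregnant LE libraries, a ratio of 120 with a counting interval from 21.2 to 4796, and rose in GE as well from a mean of 2.24 CPM, with a difference of 4.27 (adjusted p = 0.0437) that was called in 1 of the 8 fits without a gilt.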
